A study of Mus musculus with 27 samples.

Results

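The 9 genes Cdh2, Cdh11, Cdh13, Ncam1, Gja1, Gjc1, Gjb2, Panx1 and Panx3, which encode molecules that join or connect neighbouring cells, were followed through osteoblast differentiation in culture. They were chosen by name as cadherins, a neural cell adhesion molecule, connexins and pannexins, and all 9 were found among the 37991 genes measured. The cells came from the calvaria (skull caps) of neonatal C57BL/6J mice aged 5 to 9 days that carried the Col3.6 CFP transgene, in which a fragment of the type I collagen promoter drives cyan fluorescent protein. After 4 days of growth, cells positive for the fluorescent protein were sorted, returned to culture and grown with ascorbic acid, beta-glycerol phosphate and serum. RNA was sequenced every other day from day 2 to day 18 of differentiation, which gave 9 time points. All time points shared the strain, the transgene, the sort and the medium, and day of differentiation was the only difference the labels give between groups. Each day was counted as a single library, as set out below, so differences between libraries cannot be told apart from day. No culture without the differentiation medium was among the samples used. The Col3.6 promoter fragment is known to be active from immature cells of the osteoblast lineage onward, and the study regarded the sorted cells as pre-osteoblasts.

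Cadherins are calcium-dependent adhesion proteins whose extracellular repeats bind like cadherins on the next cell and whose tails, in the classical members, bind catenins that hold on to actin. Connexins assemble into gap junctions, channels that pass ions and small molecules from one cell to the next, and pannexins form channels that open mostly to the outside of the cell and release ATP. Osteoblasts and osteocytes are known to be coupled by gap junctions, chiefly of connexin 43, and N-cadherin and cadherin-11 are the cadherins usually described in osteoblasts.

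The 27 profiles were 3 per time point. The 3 profiles of a day carried the same barcode on 3 lanes, and a chi-square test over genes found no difference between their counts beyond sampling noise (0.999 to 1.02 per degree of freedom, p of 0.0513 to 0.537). The labels title them as replicates and the study's methods call them triplicates, whereas the shared barcode and counts are those of 1 library on several lanes, so they were summed and counted as 1 library per day. On that reading no time point had a replicate library. Every SE and p of a fit below measures scatter of single libraries around the fitted curve, which includes any misfit of that curve. The p-values of ratios come from permuting the days, as if days could be exchanged. Whether separate cultures were pooled in a library is not given in the sources used here. The 9 libraries held 22470195 to 62009157 estimated counts. Tests asked whether a gene moved with day beyond the scatter of single libraries around a fitted curve. Levels are given as CPM (counts scaled to an equal library total) when one gene is followed over days, always in the order of days 2, 4, 6, 8, 10, 12, 14, 16 and 18, and as TPM (transcript abundance scaled per length and to an equal total) when genes are set side by side. The label of osteoblast was met by part of its markers: Runx2 lay between 42.0 and 65.7 TPM and Col1a1 between 1526 and 4263 TPM on all days. Dmp1 and Phex, of the same marker list, went from 0.0512 and 0.338 TPM on day 2 to 6.54 and 37.2 TPM on day 18. Others of that list fell or dipped: Sp7 was 32.3 TPM on day 2 and 2.77 on day 8, and Alpl was 9.13 on day 2 and 0.467 on day 6. Spp1 was highest on day 6 (1012 TPM) and lowest on day 10 (285 TPM). The late osteocyte genes Mepe and Sost reached at most 3 and 6 counts on any day. Markers of other cells were present too. Summed TPM of 7 monocyte and macrophage markers was 24.1 to 61.7 on days 2 to 6 and 522 to 2014 on days 14 to 18, and that of 5 adipocyte markers was 3.21 to 7.44 and then 188 to 407. These lists moved over the same days as the changes given here, and their part in them was not tested. In such bulk samples fewer cells of a type and less RNA per cell cannot be told apart.

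Of the 9 genes, 2 rose along a straight line in day (Cdh11 and Gja1), 4 fell (Cdh2, Ncam1, Gjb2 and Panx1) and 3 did not pass the test (Cdh13, Gjc1 and Panx3), by the quasi-likelihood test of edgeR, Benjamini-Hochberg adjusted over 15659 genes. Among all genes tested, 28.3% rose and 26.1% fell by the same rule. The share of members that rose was not above this background and the share that fell was above it. With only 9 genes, neither difference was tested. When the curve was allowed to bend, by a natural spline with 3 degrees of freedom, 9 of 9 members changed, against 57.5% of 16256 genes. Without day 4 or without day 6 the spline count was 6, with the calls of Gjc1, Panx1 and Panx3 lost, and without day 2 it was 7, with those of Gja1 and Gjc1 lost. Fitted changes below are log2 changes over the whole span from day 2 to day 18, with their standard error (SE). The plots of CPM by day and of change from day 2 show 3 shapes. Cdh2, Cdh11, Ncam1 and Gjb2 moved mostly in 1 direction, at 7 steps between neighbouring days against 1. Among them Cdh11 and Ncam1 moved little from day 12 on, and Gjb2 rose 3.28 times from day 14 to day 16. Gja1 had an early rise that levelled off, and Cdh13, Gjc1, Panx1 and Panx3 turned part way.

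**Figure D1:**
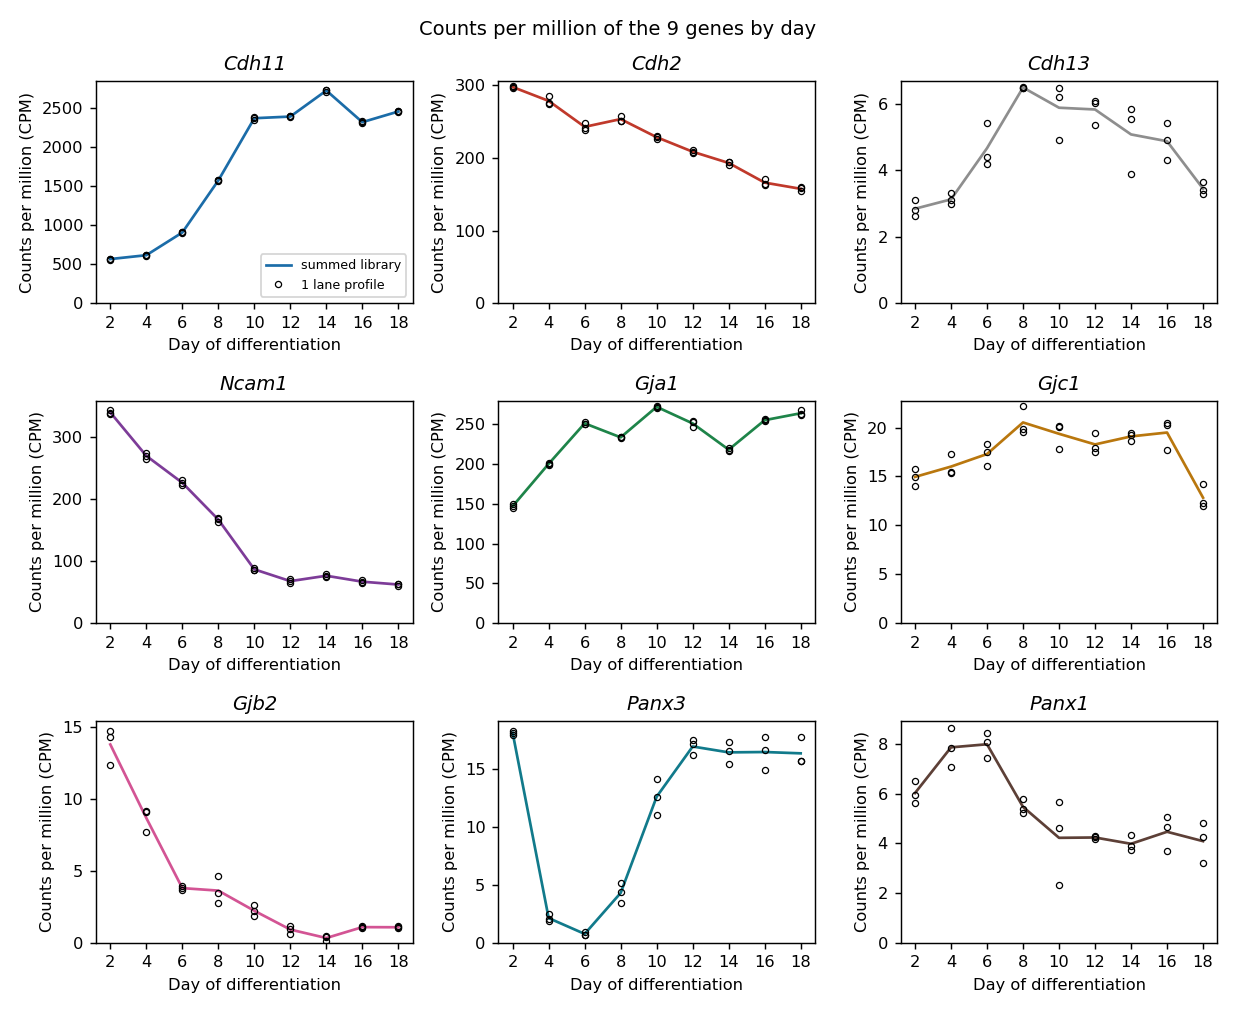
Library-scaled counts (CPM, linear axes that start at 0) of the 9 genes by day of differentiation, 1 panel per gene, with open circles for the 3 lane profiles of a day and a line through the summed libraries. Cdh11 climbed from 565 to 2452 CPM and Ncam1 fell from 340.3 to 62.1 CPM, while Panx3 dropped to 0.765 CPM on day 6 and stood at 16.3 CPM on day 18.

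**Figure D2:**
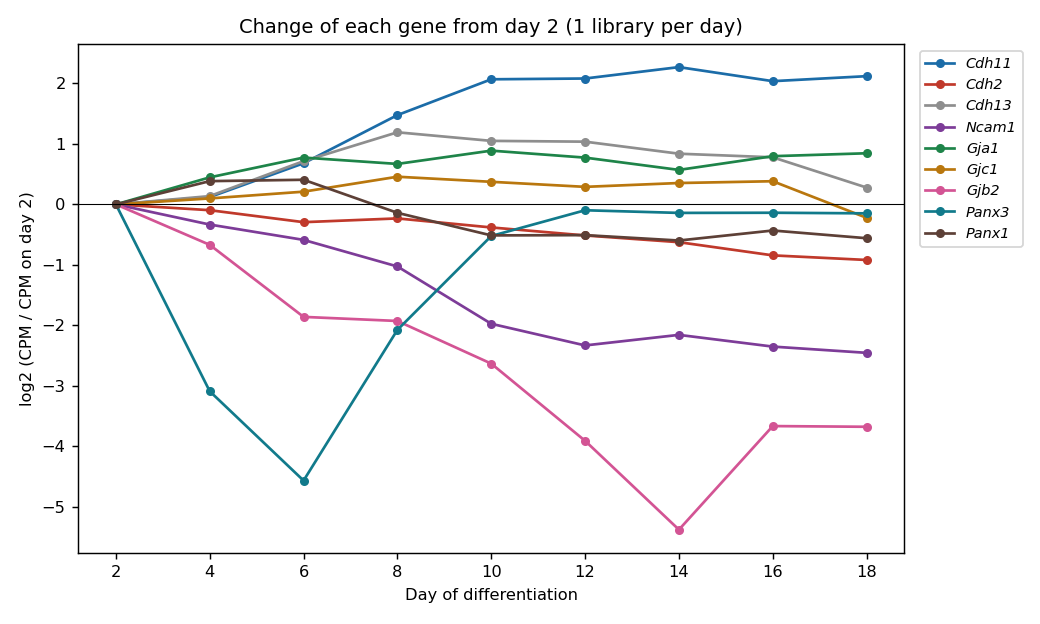
Log2 of each gene's CPM over its own CPM on day 2, by day of differentiation, with 1 line per gene and 1 library per point. On day 18 Gjb2 lay lowest and Cdh11 highest, and Panx3, lowest on day 6, had come back near its day 2 level.

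Cdh11 encodes cadherin-11, also called OB-cadherin, a classical type II cadherin of mesenchymal cells, and lies on the minus strand of chromosome 8 (105156895 to 105309011, NCBIM37). By mean TPM it was the most abundant member on every day. On day 2 the order was within the scatter between lanes, at 208 TPM against 195 ± 71.7 (SD of 3 lanes) for Ncam1. Its level was 565, 614, 904, 1570.2, 2366, 2388, 2721, 2316 and 2452 CPM from the first library to the last. In CPM nearly all of the rise lay between day 4 and day 10, and the last 5 libraries were all above the first 4. In TPM, here scaled by the upper quartile, the level still rose from 892 on day 10 to 1049 on day 12 and 1114 on day 14. The level on day 18 was 4.34 times that on day 2, and the fitted log2 change was 2.56 (SE 0.43, edgeR adjusted p = 0.000709). A single transcript of Cdh11 was listed, so its TPM did not depend on how reads were shared among isoforms. Most profiles gave fractional counts for it, 26 of 27, so some of its reads also aligned to other genes.

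Cdh2 encodes N-cadherin, the classical type I cadherin named for neural tissue, on the minus strand of chromosome 18 (16747386 to 16967755, NCBIM37). Its level was 298, 279, 243, 254, 229, 209, 193, 166 and 158 CPM from the first library to the last. In CPM it went down at 7 of 8 steps between neighbouring days and ended 1.89 times lower than it began. In TPM it also rose from day 10 to day 12 (90.1 to 96.8), and day 2 was 1.66 times day 18. The fitted log2 change was -0.79 (SE 0.11, edgeR adjusted p = 0.000206), the smallest SE of the 9 genes.

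The 2 classical cadherins therefore moved apart. In TPM, Cdh11 was 1.81 times Cdh2 on day 2, 5.94 times on day 8 and 14.9 times on day 18. The ratio rose with day, with a Spearman rho of 0.98 over 9 time points (two-sided exact permutation p = 4.96e-05, or 0.000149 when adjusted over 3 ratios) and a Pearson r of 0.95 for its log2 (exact permutation adjusted p = 3.31e-05). Without the first and last day rho was 0.96 (exact permutation adjusted p = 0.00833) and r was 0.95 (exact permutation adjusted p = 0.00238), so the relation did not rest on the ends of the series. Of the summed TPM of 21 cadherin genes, Cdh11 took 59.5% on day 2 and 91.8% on day 18, and Cdh2 took 32.8% and 6.17%. The TPM of Cdh2 itself was 115 on day 2 and 69.2 on day 18.

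**Figure D3:**
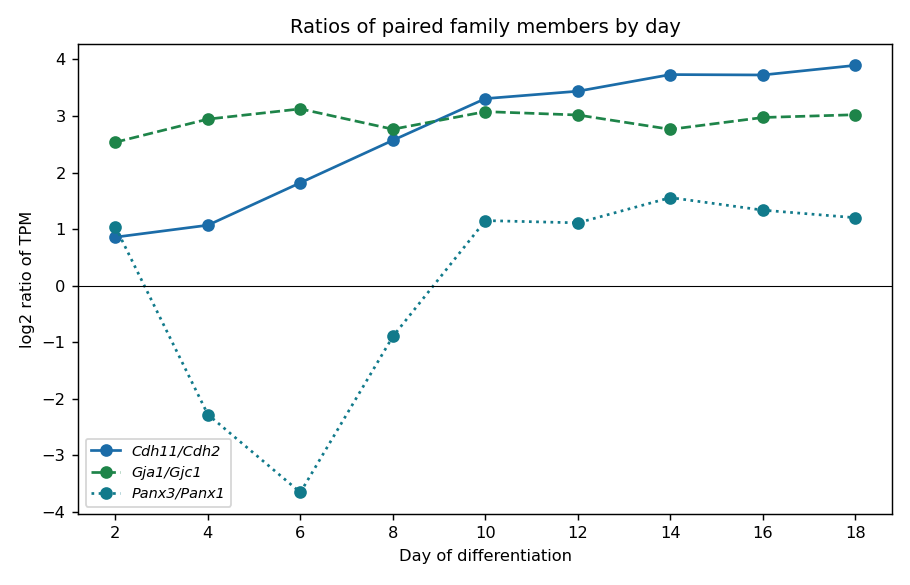
Log2 ratios of TPM between members of a family by day of differentiation, for Cdh11 over Cdh2 (solid), Gja1 over Gjc1 (dashed) and Panx3 over Panx1 (dotted), with 1 point per day. As plain ratios, the cadherin line climbs from 1.81 to 14.9, the connexin line goes from 5.80 to 8.13 (12.0 on day 18 when 1 length is used for Gjc1 in all profiles), and the pannexin line dips to 0.0794 on day 6 and reaches 2.94 on day 14.

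Cdh13 encodes T-cadherin, which lacks a cytoplasmic tail, is held in the membrane by a glycosylphosphatidylinositol anchor and binds adiponectin (chromosome 8, plus strand, 120807633 to 121848821). Its level was low, at 2.84, 3.12, 4.66, 6.48, 5.87, 5.82, 5.07, 4.87 and 3.44 CPM from the first library to the last. In CPM it was highest on day 8, at 2.28 times its lowest level, and went down at all 5 later steps. The Wilson interval, which covers counting error only, was 5.63 to 7.46 CPM on day 8. It was 4.95 to 6.97 CPM on day 10 and 5.25 to 6.45 CPM on day 12, so these intervals overlapped. With the same length used in all profiles, day 12 (3.84 TPM) was above day 8 (3.59 TPM) and day 10 (3.31 TPM). Neither the day of the peak nor the first steps down were therefore settled. A line did not describe the rise and fall, with a fitted log2 change of 0.54 (SE 0.43, edgeR adjusted p = 0.310). The spline gave an edgeR adjusted p of 0.00305. Adipoq, the gene of the adiponectin that T-cadherin binds, had 0.204 TPM at the start and 92.0 TPM at the end, when Cdh13 was close to its starting level.

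Ncam1 encodes the neural cell adhesion molecule, a member of the immunoglobulin superfamily that adheres without calcium (chromosome 9, minus strand, 49310257 to 49607027). Its level was 340.3, 270.1, 227, 167, 86.7, 67.6, 76.3, 66.7 and 62.1 CPM from the first library to the last. The fall was steepest from day 8 to day 10, by 1.93 times, and the last 5 libraries lay below all of the first 4. Day 18 was 5.48 times below day 2 and the fitted log2 change was -2.56 (SE 0.26, edgeR adjusted p = 5.21e-05). Ncam1 fell over the days on which Cdh11 rose, and the Pearson r of their log2 CPM was -0.98 over 9 time points, a description of libraries that share the same day, depth and scaling factor.

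Gja1 encodes connexin 43 (chromosome 10, plus strand, 56097106 to 56110225, NCBIM37), and Gjb2 encodes connexin 26, better known from the inner ear and epithelia. These connexins moved in opposite directions, and their promoter windows, 250 bases before to 50 after the start site, are shown to let them be compared. Both come from the RefSeq promoter table (GRCm38.p6), in which 3 of the 9 members were found, Panx1 being the other one. Gja1 is at chr10:56377050-56377349 on the plus strand and Gjb2 at chr14:57104653-57104952 on the minus strand, both written 5′ to 3′. Capitals mark matches on either strand to an AP-1 motif (TGANTCA) in Gja1 and to a GC box (GGGCGG) in Gjb2.
Gja1: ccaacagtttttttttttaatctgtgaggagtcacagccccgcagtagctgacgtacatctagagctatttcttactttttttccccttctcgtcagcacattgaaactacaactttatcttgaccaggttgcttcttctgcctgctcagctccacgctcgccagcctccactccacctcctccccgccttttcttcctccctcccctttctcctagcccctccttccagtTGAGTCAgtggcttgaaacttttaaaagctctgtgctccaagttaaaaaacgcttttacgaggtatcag
Gjb2: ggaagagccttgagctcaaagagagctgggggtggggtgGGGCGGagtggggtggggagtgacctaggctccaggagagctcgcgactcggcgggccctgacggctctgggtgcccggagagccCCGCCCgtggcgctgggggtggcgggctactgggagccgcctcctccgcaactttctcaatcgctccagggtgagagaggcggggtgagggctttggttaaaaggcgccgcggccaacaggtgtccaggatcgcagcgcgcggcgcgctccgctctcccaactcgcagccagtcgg
The Gja1 window is 47.7% G and C with 8 CpG dinucleotides, and its 1 AP-1 match begins 19 bases before the start site. The Gjb2 window is 70.0% G and C with 27 CpG dinucleotides, and its 2 GC boxes begin 211 and 126 bases before the start site. Of 32851 promoter windows of the same length, 7.81% held TGANTCA and 35.7% held GGGCGG. Neither window held the RUNX core TGTGGT (16.8% of windows) or TATAAA (13.6%), and each held 1 E-box (CANNTG, 72.3%), which was not put in capitals and in Gja1 overlaps the AP-1 match. A match describes these letters only.

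Gja1 was at 147, 200.3, 251, 234, 272, 251, 218, 255 and 264 CPM from the first library to the last. The rise was early: day 2 was the lowest library and day 4 the next, and from day 6 on the level had no clear direction. Day 18 was 1.80 times day 2, and the fitted log2 change was 0.66 (SE 0.20, edgeR adjusted p = 0.0167). The call rested on the first library, since without day 2 the change was 0.40 (edgeR adjusted p = 0.0905). Gja1 provided 68.5% of the summed TPM of 20 connexin genes on day 2 and 87.1% on day 18.

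Gjb2 (chromosome 14, minus strand, 57717437 to 57723539, NCBIM37) fell most of the 9 genes. It was at 13.8, 8.68, 3.80, 3.63, 2.23, 0.919, 0.332, 1.09 and 1.08 CPM from the first library to the last. The lowest library, day 14, held 15 counts and the highest, day 2, held 583, so the late levels were imprecise. Day 18 was 12.8 times below day 2, and the fitted log2 change was -4.04 (SE 0.63, edgeR adjusted p = 0.000438). Its share of connexin TPM went from 8.54% on day 2 to 0.477% on day 18. Epithelial markers were near the floor beside it: 6 of them summed to 0.205 to 0.785 TPM on days 2 to 6 and 0.226 to 0.252 TPM on days 14 to 18, and Krt14 had no count on any day.

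Gjc1 encodes connexin 45, which can join connexin 43 in mixed channels (chromosome 11, minus strand, 102660893 to 102681014). It was at 14.9, 16.0, 17.3, 20.5, 19.4, 18.3, 19.1, 19.5 and 12.8 CPM from the first library to the last. Its levels spanned only 1.60 times, the narrowest span of the 9, and the last library was the lowest. The fitted log2 change was 0.17 (SE 0.22, edgeR adjusted p = 0.552). The last library decided this, since without day 18 the change was 0.51 (edgeR adjusted p = 0.0217). Its spline call (edgeR adjusted p = 0.0366) was lost with TMM factors (0.0563), with no count filter (0.0622) and without day 2, 4, 6, 10 or 14 (0.0569 to 0.0939), all edgeR adjusted p. The TPM ratio of Gja1 to Gjc1 was 5.80 on day 2, 8.73 on day 6 and 8.13 on day 18 and had a rho of 0.27 with day (exact permutation test, adjusted p = 0.493) and an r of 0.38 (exact permutation adjusted p = 0.319). The sign of rho changed without day 2 (-0.0476) and without replicate 2 (-0.0333). The last value depended on the length RSEM gave Gjc1 in 1 profile of day 18: with 1 length per gene over all profiles the ratio ran from 5.75 on day 2 to 12.0 on day 18, and the ratio of counts from 9.83 to 20.6. On either of these scales rho was 0.48 (exact permutation adjusted p = 0.194) and r was 0.62 (exact permutation adjusted p = 0.092).

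Panx3 encodes pannexin 3, which is known from bone and cartilage (chromosome 9, minus strand, 37467487 to 37476807). It had a course of its own, with a loss and a return. It was at 18.1, 2.13, 0.765, 4.30, 12.6, 16.9, 16.4, 16.4 and 16.3 CPM from the first library to the last. The level fell 8.50 times from day 2 to day 4 and 2.78 times more to day 6, then rose 5.62 times to day 8 and 2.93 times to day 10 and 1.34 times to day 12, after which it held. Day 6 had 33 counts, a 95% Wilson interval of 0.545 to 1.07 CPM that covers counting error only, and day 2 had 765 counts, an interval of 16.9 to 19.4 CPM. The line had a log2 change of 1.24 (SE 1.05, edgeR adjusted p = 0.340), and the spline an edgeR adjusted p of 0.00947. One library weighs on this: without day 2 the line gave a change of 4.40 (edgeR adjusted p = 0.00912), and the spline call was lost without day 4 (0.0802) or day 6 (0.107), both edgeR adjusted p.

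The dip of Panx3 was shared by some osteoblast markers and not by others. Alpl, the alkaline phosphatase of mineralising cells, stood at 9.13 TPM on day 2, 0.467 on day 6 and 17.6 on day 18, and was the gene most like Panx3 among 9815 candidates by Pearson r of log2 CPM (0.97, 9 time points). Sp7, the transcription factor osterix, was 32.3 TPM on day 2, lowest at 2.77 TPM on day 8 and 10.6 TPM on day 18, with an r of 0.55. Spp1, the gene of osteopontin, ran the other way, with its highest level of 1012 TPM on day 6 and an r of -0.89. Ibsp, Bglap and Bglap2, genes of the mineralised matrix, were low at first and reached 78.4, 208 and 274 TPM on day 18. The high day 2 level of Panx3 therefore had no counterpart in them. At their low level Ibsp and Bglap also went down early, from 0.581 and 1.24 TPM on day 2 to 0.0965 and 0.224 TPM on day 4. Bglap2 was lowest on day 2, at 0.795 TPM. The r with Panx3 was 0.75 for Ibsp, 0.65 for Bglap, 0.51 for Bglap2 and 0.88 for Runx2.

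**Figure D4:**
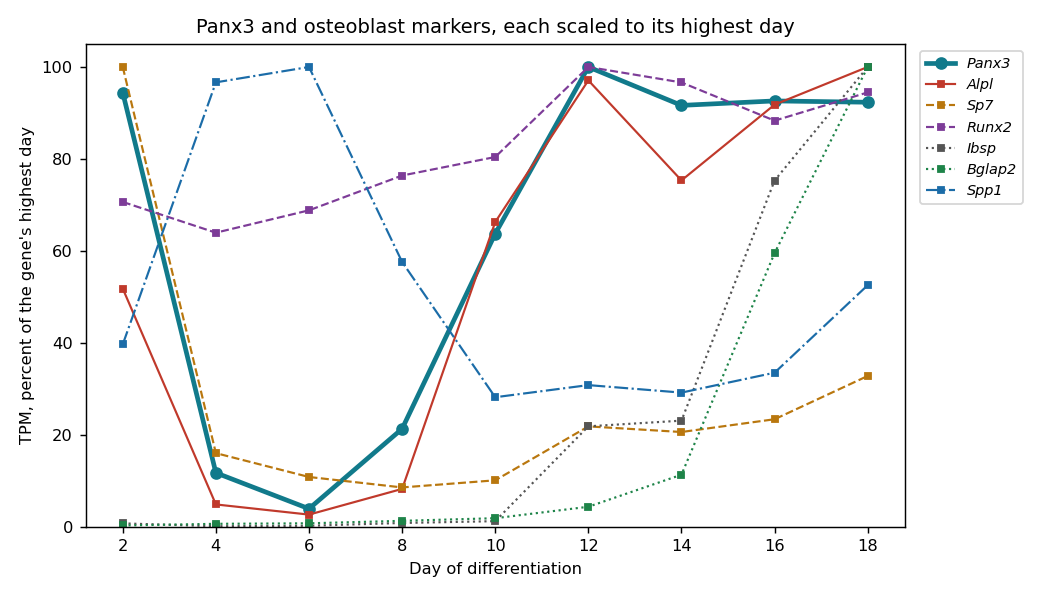
TPM of Panx3 and of the osteoblast markers Alpl, Sp7, Runx2, Ibsp, Bglap2 and Spp1 by day of differentiation, each as a percent of the gene's own highest day. Panx3 and Alpl are lowest on day 6 (0.513 and 0.467 TPM), when Spp1 is at its highest (1012 TPM), and Ibsp and Bglap2 climb only late.

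Panx1 encodes pannexin 1, the widely expressed member of the family (chromosome 9, minus strand, 14809605 to 14849922). It was at 6.03, 7.87, 8.00, 5.47, 4.23, 4.24, 3.99, 4.47 and 4.09 CPM from the first library to the last. It was thus highest on the days on which Panx3 was lowest and kept a lower level from day 10 on. The fitted log2 change was -0.84 (SE 0.25, edgeR adjusted p = 0.0145), and without day 4 it was -0.70 (edgeR adjusted p = 0.0595). In TPM, Panx3 was 2.06 times Panx1 on day 2, 0.0794 times on day 6 and 2.30 times on day 18, so Panx1 took 92.5% of the summed TPM of 3 pannexin genes on day 6 and Panx3 took 74.4% on day 14. The ratio had a rho of 0.80 with day (exact permutation adjusted p = 0.0207) and an r of 0.58 (exact permutation adjusted p = 0.154), and without the first and last day an r of 0.87 (exact permutation adjusted p = 0.0196). With 1 length per gene the ratio was 2.13, 0.0680 and 2.84 on days 2, 6 and 18, with a rho of 0.73 (exact permutation adjusted p = 0.0467). The rho in TPM rested on single lanes and days, since it was 0.35 without replicate 1 (exact permutation adjusted p = 0.538), 0.65 without replicate 3 (exact permutation adjusted p = 0.0998) and 0.738 without day 10 or day 12 (exact permutation adjusted p = 0.0688 for each). Panx2, the other pannexin, had at most 7 counts on any day.

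Set side by side per length, mean TPM over 9 days was 713 ± 373 (SD) for Cdh11, 129 ± 25.8 for Gja1, 92.6 ± 15.5 for Cdh2, 78.8 ± 56.5 for Ncam1, 16.9 ± 2.33 for Gjc1, 8.30 ± 5.22 for Panx3, 5.45 ± 1.17 for Panx1, 3.04 ± 1.17 for Cdh13 and 2.77 ± 3.06 for Gjb2. Cdh11 was above Gja1, Ncam1 above Gjc1, and Gjc1 above Panx3 on 9 of 9 days. The order of Gja1 and Cdh2 and of Cdh2 and Ncam1 held on 7 of 9 days each, that of Panx3 and Panx1 on 6, that of Panx1 and Cdh13 on 8 and that of Cdh13 and Gjb2 on 7. All members were at 1 TPM or more on every day except Panx3, which was so on 8 days, and Gjb2, on 5.

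TPM and CPM differed in how well they repeated between lanes. The effective length that RSEM divides by is an average over isoforms, and for Ncam1 it ran from 1299 to 4444 bases across profiles, for Cdh13 from 937 to 3506, for Gjc1 from 651 to 1754 and for Panx1 from 1022 to 2387. It was constant for Cdh11, Gja1 and Gjb2. The SD of TPM between the lanes of a day was at most 1.77% of the level for Cdh11 and 1.95% for Gja1, and at most 63.5% for Cdh13 and 55.5% for Ncam1. For Gjb2, whose length was also constant, it reached 52.3% on day 14, when the library held 15 counts. On day 2 the 3 profiles of Ncam1 held 4756, 4809 and 4824 counts, yet their TPM was 116, 257 and 210. On day 18 those of Gjc1 held 173, 213 and 184 counts with a TPM of 11.9, 14.0 and 31.1. Only 1 profile, on day 18, gave Gjc1 the short length of 651 bases, and with it Gjc1 had its highest mean TPM (19.0) on the day of its lowest CPM (12.8). The trend of each of these 4 genes is therefore given in CPM, while their ratios, shares and places in the order of levels are in TPM and carry this scatter.

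**Figure D5:**
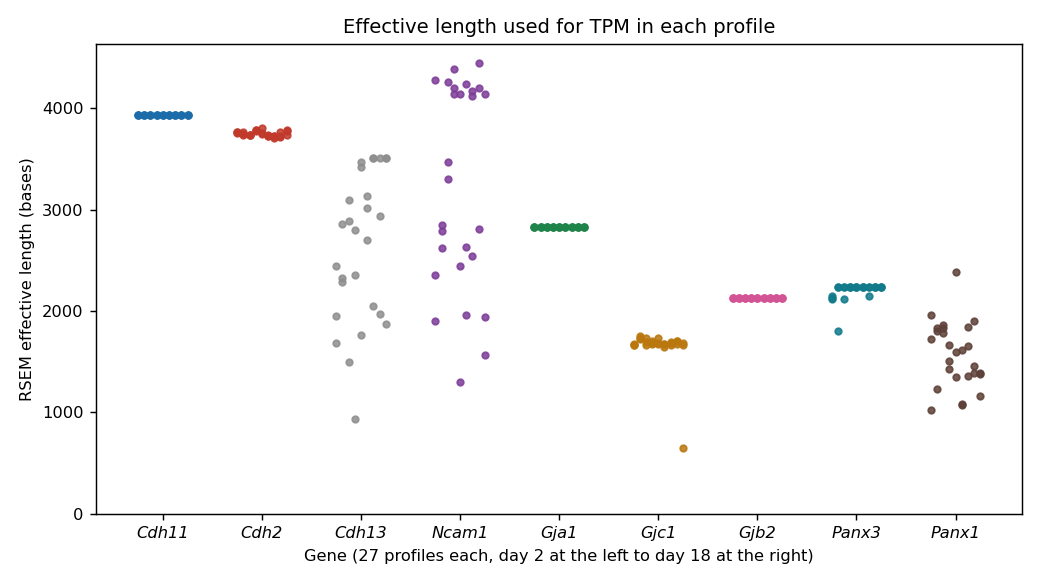
Effective length in bases that RSEM used for each gene in each of the 27 profiles, 1 point per profile, with day 2 at the left and day 18 at the right of each gene. Cdh11, Gja1 and Gjb2 form flat rows, while Ncam1 spreads from 1299 to 4444 bases and Cdh13 from 937 to 3506 bases.

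Relatives and partners of the members were counted by the same straight line, by which 28.3% of all genes tested rose and 26.1% fell. These shares are the background for every list below. Of 18 other cadherins, 14 were tested, and 5 rose and 3 fell, near these shares. Their median log2 change was 0.26 against 0.05 over all genes. Among them Cdh4 (R-cadherin) rose by 5.81 and Cdh10 fell by 3.33 on the log2 scale, both from low levels, with means of 2.59 and 2.99 TPM. Of 18 other connexin and pannexin genes, 6 were tested, of which 4 fell and 2 did not pass, and the median was -2.17. Among those that fell was Gjb5 (-2.95), which is of the beta group of connexins to which Gjb2 belongs and is known from the epidermis. Gjb1, Gjd2, Gjd3 and Gjd4 had no counts on any day.

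Of 15 catenins and other partners at cadherin junctions, 3 rose and 8 fell, with a median of -0.39. Alpha-catenin (Ctnna1, -0.39) and p120-catenin (Ctnnd1, -0.49) fell, and beta-catenin (Ctnnb1) had a change of 0.23 that did not pass (edgeR adjusted p = 0.110). The nectins Pvrl1 and Pvrl2 and the actin cross-linker Actn1 fell by 2.25, 1.82 and 1.87 on the log2 scale, and the neural alpha-catenin Ctnna2 rose by 5.53. Of 11 partners of connexins, 1 rose and 6 fell: Nov, a secreted matricellular protein, rose by 6.80 while caveolin-1 (Cav1, -1.63) fell, and the connexin 43 binding scaffold Tjp1 had a change of 0.03 (edgeR adjusted p = 0.842).

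Of 13 other immunoglobulin adhesion molecules, 12 were tested, 5 rose and 5 fell, with a median of -0.39. The largest rise was that of Ncam2, the closest relative of Ncam1, at 4.39, and the largest fall that of Mcam at -3.20. Of 9 partners of Ncam1 and Cdh13, 6 rose and 2 fell, with a median of 0.84. The polysialyltransferase St8sia2, which modifies Ncam1, rose by 2.89, the co-receptor Gfra1 by 3.81 and Adipoq by 12.17, which is also an adipocyte marker. The kinase Fyn, which acts downstream of Ncam1, fell by 1.25. Of 14 genes of ATP and adenosine signalling, which lies downstream of channel release of ATP, 12 were tested, 7 rose and 1 fell, with a median of 1.33. Entpd2, an ectonucleotidase that splits ATP, rose by 8.18, the receptor P2rx4 by 1.27 and P2ry6 by 4.11, whereas the adenosine receptor Adora2b fell by 3.79.

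Marker lists, counted by the same line and beside the same shares of 28.3% rising and 26.1% falling over all genes, showed what else moved in these cultures. Of 10 osteoblast markers tested, 7 rose and 3 did not pass. Of 7 macrophage markers, 6 rose, led among those named by Emr1 (7.73) and Lyz2 (6.47), and of 5 adipocyte markers, 5 rose. Of 3 endothelial markers tested, 2 rose and 1 fell, of 3 glial and neuronal markers, 2 rose and 1 fell, and of 5 chondrocyte markers, 3 rose and 1 fell. The 1 epithelial marker tested had no call and the 1 skeletal muscle marker tested, Des, fell by 1.96.

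The genes whose course was most like each member were found by Pearson r of log2 CPM over 9 time points among 9815 genes, as a description. Cdh11 was followed most closely by Col14a1, Mmp14 and Egfl6 (0.998 for each), which encode a fibril-associated collagen, a membrane-bound collagenase and a secreted matrix protein. Nearest to Ncam1 were Pde12, Sipa1l3 and Mical2 (0.998 for each), and nearest to Cdh2 were Huwe1, Prrc2c and Lmtk2 (0.99 for each). For Cdh13 they were Snn (0.98), Gli3 (0.97) and Tll1 (0.97), for Gja1 Skap2 (0.96), Hdgfrp3 (0.96) and Slc39a11 (0.96), and for Gjc1 Apoa1bp (0.94), Zswim7 (0.93) and Ric8b (0.92). Gjb2 had Socs6, Ccnc and Cpox (0.98 to 0.99), Panx1 had Gsto1, Pdia3 and 4930455C21Rik (0.97 to 0.98), and Panx3 had Qser1 (0.97) and Wrn (0.96) after Alpl. Gjc1, with the narrowest span of levels, also had the lowest top correlation.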

How the data were processed

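Osteoblast cultures from mouse calvaria were profiled by RNA sequencing at 9 time points. Per the labels, cDNA was amplified with the NuGEN Ovation kit, libraries were made with Illumina TruSeq, and Bowtie 0.12.9 and RSEM 1.2.8 were used with NCBIM37. The authors deposited estimated counts from RSEM for every gene, without scaling. The TPM deposited by the authors divide counts by an effective length and scale them to a fixed total, and the FPKM deposited by the authors scale them per kilobase of length and by aligned fragments. Strand handling in counting was not given in the sources used here, so reads of an antisense gene cannot be told from those of a member.

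Expected counts of the 3 lane profiles of a day were summed and rounded. Genes were kept by filterByExpr (minimum count 10), scaled by upper-quartile factors and tested with edgeR 4.0.16 (R 4.3.3), by glmQLFit and glmQLFTest, with a straight line in day or a natural spline with 3 degrees of freedom, at a Benjamini-Hochberg adjusted p of 0.05 over all genes tested. The p-values of the fits measure the scatter of single libraries around the curve, with any misfit of the curve included, not that of replicate cultures. SE was the log2 change divided by the square root of F. TPM was divided by its 75th percentile in each profile and rescaled. Ratios were tested by exact permutation over time points, two-sided. Scripts were tested on simulated data. Symbols and positions came from GENCODE on NCBIM37. Members and lists were chosen with earlier results of these data known. All members are named. From each related list up to 3 called genes with the largest rise and 3 with the largest fall at a mean of 1 TPM or more could be named, and the 3 nearest genes of each member at 5 TPM or more. Some genes that this rule would name are not reported here. Ctnna1, Ctnnd1, Ctnnb1, Tjp1, P2rx4 and the markers shown beside Panx3 were named for their known roles, after their values had been seen. Alternatives were TMM factors, DESeq2 1.42.0, no count filter, early against late days, FPKM, each day or lane left out, and the 27 profiles as samples. Wilson intervals (95%) cover counting error only.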

Additional observations from a re-analysis of the deposited data

How the results depend on the processing

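Of 298 recomputed values, 281 were counted as unchanged, among them 157 of 162 fitted changes, of which 0 reversed. The fitted changes include fits that left out 1 lane or took lanes of 1 library as samples, which could hardly differ. The mean levels of Cdh2, Gja1, Gjc1 and Panx1 in FPKM (60.1, 82.3, 10.8 and 3.52) were not counted as unchanged. Unchanged meant the same direction and call for a fitted change or a ratio. For a mean level it meant a move of less than the SD over days, and for a count of members a wider margin. Under that margin a spline count of 6 in place of 9 still passed as unchanged. Comparing days 14 to 18 with days 2 to 6 left 1 rising member in place of 2, because Gja1 then had a log2 change of 0.39 (edgeR adjusted p = 0.103). With 1 day left out, the line gave 2 to 3 rising and 3 to 4 falling members and the spline 6 to 9 changed members. The rank correlation of Gja1/Gjc1 with day turned to -0.214 when the first and last day were dropped (exact permutation adjusted p = 0.662), -0.0333 without replicate 2 and -0.0476 without day 2, and ranged from -0.0476 to 0.50 over the left-out days and replicates, so it has no stable sign. That of Panx3/Panx1 missed the threshold without replicate 1 (0.35) and without replicate 3 (0.65), and at 0.738 without day 10 or day 12, with a range of 0.35 to 0.857 over the left-out days and replicates. On summed counts or with 1 length per gene, both chosen after seeing the data, it was 0.73 (exact permutation adjusted p = 0.0467) and that of Gja1/Gjc1 was 0.48. The causes were not tested.

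The replicate numbers are lanes and did not pair the samples: deviations of same-numbered profiles had a mean correlation of 0.01. With the 27 profiles as samples and the replicate block, 2 members rose, 4 fell and 9 changed by the spline, as without the block. Leaving out 1 lane changed none of these counts. Because the lanes of a day repeat 1 library, neither outcome is separate support for the counts. No library was repeated at any time point, and late Gjb2 and day 6 Panx3 rest on few counts.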
